A study of Homo sapiens with 11 samples.

Results

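The miR-106b-25 and miR-106a-363 clusters are the paralogs of the oncogenic miR-17-92 cluster, and miR-92b is a separate locus whose product has the miR-25 family seed. Their 9 mature miRNAs were examined among the 2588 mature miRNAs listed for 6 human tumour cell lines. Members were chosen by name. They comprise hsa-miR-106b-5p, hsa-miR-106b-3p, hsa-miR-93-5p and hsa-miR-25-3p of miR-106b-25, hsa-miR-106a-5p, hsa-miR-20b-5p, hsa-miR-18b-5p and hsa-miR-363-3p of miR-106a-363, and hsa-miR-92b-3p, named without the species prefix from here on. Small RNA-seq was performed in parental, untreated cells of A549 (lung cancer), ES2 (ovarian cancer), MV3 (melanoma), PANC1 (pancreatic cancer), BE(2)C (neuroblastoma) and HepG2 (liver cancer). For 5 lines 2 libraries were available, described by the study as biological replicates, and PANC1 was covered by 1 library. Each line is a single culture model of its tumour type. For A549, ES2, MV3 and PANC1 a NEXTflex kit was used on 50 ng of total RNA, whereas the company Novogene prepared the BE(2)C and HepG2 libraries. Cells were harvested 48 h after seeding, except that the treatment protocol gives 24 h for BE(2)C where its sample characteristics give 48 h. Wherever a NEXTflex line is set against a Novogene line, effects of the line and of the preparation cannot be told apart.

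MiRNAs are cut from hairpin precursors, each of which can yield a 5p and a 3p product. The loaded strand guides Argonaute to mRNAs mainly by the seed, the stretch from base 2 to base 8, so that miRNAs sharing a seed address overlapping targets. MiRNAs with the miR-17 seed are known to restrain the cell cycle inhibitor CDKN1A and the E2F1 transcription factor, and those with the miR-25 seed the pro-apoptotic BCL2L11. In the GENCODE annotation of GRCh38, MIR106B (chr7:100093993-100094074), MIR93 (chr7:100093768-100093847) and MIR25 (chr7:100093560-100093643) lie within 515 bases on the minus strand. All are in intron 13 of MCM7 (transcript ENST00000303887.10), which encodes a subunit of the replicative helicase. The 6 precursors MIR106A, MIR18B, MIR20B, MIR19B2, MIR92A2 and MIR363 span 901 bases on the minus strand (chrX:134169378-134170278), in exon 2 of a lncRNA (ENST00000636668.1 of ENSG00000283638). MIR92B (chr1:155195177-155195272, plus strand) lies in exon 1 of the lncRNA THBS3-AS1 (ENST00000685687.1).

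The mature sequences are shown since they define which members share a seed and how closely the X-linked products resemble those of miR-17-92. They were taken from RefSeq (GRCh38.p14), where 9 of the 9 members were found. Capitals mark the seed, bases 2 to 8 from the 5′ end. The first group carries the miR-17 seed, with miR-17-5p and miR-20a-5p of miR-17-92 added for comparison:
miR-106b-5p: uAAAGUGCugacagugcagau
miR-93-5p: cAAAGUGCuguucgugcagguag
miR-106a-5p: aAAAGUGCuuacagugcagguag
miR-20b-5p: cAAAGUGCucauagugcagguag
miR-17-5p: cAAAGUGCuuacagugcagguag
miR-20a-5p: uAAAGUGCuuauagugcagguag
The second group carries the miR-25 seed, with miR-92a-3p added, which is encoded both in miR-17-92 and in miR-106a-363:
miR-25-3p: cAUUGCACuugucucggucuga
miR-363-3p: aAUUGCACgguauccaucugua
miR-92b-3p: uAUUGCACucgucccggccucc
miR-92a-3p: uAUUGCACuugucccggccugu
The remaining pair carries the miR-18 seed, and miR-106b-3p, the opposite arm of miR-106b-5p, has a seed of its own:
miR-18b-5p: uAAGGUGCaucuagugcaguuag
miR-18a-5p: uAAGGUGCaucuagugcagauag
miR-106b-3p: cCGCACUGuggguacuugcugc
Counted from the 5′ end, miR-106a-5p differs from miR-17-5p by C1A alone, and miR-18b-5p from miR-18a-5p by A20U alone. MiR-20b-5p differs from miR-20a-5p by U1C and U10C, and miR-92b-3p from miR-92a-3p by U10C, G21C and U22C. How reads fitting such neighbours were assigned is not given in the sources used here, so low values of miR-106a-5p, miR-18b-5p and miR-20b-5p are uncertain.

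Between 1173902 (MV3) and 12137452 reads (HepG2) were assigned to the listed miRNAs per library. CPM, the reads of a miRNA per 1000000 of these reads, is used throughout. The 3 reads that a count of 0 leaves possible correspond to 2.56 CPM at the lowest and 0.247 CPM at the highest depth. Intervals and limits cover counting error only. MiR-148a-3p accounted for 75.3% and 72.6% of all reads in the HepG2 libraries. MiR-21-5p took 27.0% to 65.0% in the NEXTflex libraries. As such shares lower the CPM of every other miRNA, levels are also given after TMM scaling (trimmed mean of M-values), which gave factors of 0.166 and 0.217 in HepG2 against 1.02 to 1.87 in the other libraries. Defining markers, which were read on the CPM scale only, went against some labels. The hepatocyte miR-122-5p was at 64.0 and 50.0 CPM in HepG2 but at 823 and 5.96 CPM in the BE(2)C libraries. The melanocyte miR-211-5p was at 0 in MV3, as in all 11 libraries. The other melanocyte marker, miR-204-5p, was at 1.70 and 1.29 CPM in MV3 but at 70.2 and 41.0 CPM in BE(2)C. The haematopoietic miR-142-3p was at 326 and 286 CPM in ES2, and the erythroid miR-451a at 299 and 46.0 CPM in BE(2)C. Other markers of these lists did not go with them. In ES2 miR-223-3p was at 0 and miR-150-5p at 1.20 and 0 CPM, and in BE(2)C the erythroid miR-144-3p was at 0. The 4 neural markers summed to 17436 and 19522 CPM in BE(2)C and to at most 5140 CPM elsewhere, of which miR-9-5p alone gave 15875 and 17555 CPM in BE(2)C. MiR-128-3p, at 1446 and 1692 CPM in BE(2)C, was higher in MV3, PANC1 and HepG2, and miR-9-3p, at 96.7 and 248 CPM, was higher in PANC1 (464 CPM).

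The 4 members of miR-106b-25 were read far above the 4 members chosen for miR-106a-363 in every library. Products of miR-106a-363 that another locus also encodes were left out, since their reads cannot be assigned to a locus. The comparison thus concerns these members, not the whole output of the clusters. Both arms of the MIR106B hairpin count in the first sum. Most reads of the second sum in A549, ES2, MV3 and HepG2 were of miR-106a-5p, whose low values are uncertain. In BE(2)C miR-106a-5p gave 56 of 128 and 169 of 299 reads, and miR-20b-5p and miR-18b-5p, also uncertain, gave further ones. In such bulk libraries fewer expressing cells and less RNA per cell cannot be told apart. The 4 members of miR-106b-25 summed to 5565 ± 112 CPM in A549, 7839 ± 169 in ES2, 9923 ± 502 in MV3, 16250 ± 81.0 in BE(2)C and 1914 ± 84.0 in HepG2 (SD, n = 2 each), and to 8525 CPM in the single PANC1 library. The 4 members of miR-106a-363 summed to 5.40 ± 1.28 CPM in A549, 17.3 ± 7.84 in ES2, 11.99 ± 1.30 in MV3, 31.4 ± 20.3 in BE(2)C and 3.12 ± 0.601 in HepG2 (SD, n = 2 each), and to 14.1 CPM in PANC1. The ratio of both sums within a library does not depend on scaling between libraries. It lay between 338 and 1221 over the 11 libraries. The mean log2 ratio was 10.03 ± 0.32 in A549, 8.90 ± 0.71 in ES2, 9.70 ± 0.08 in MV3, 9.19 ± 1.00 in BE(2)C and 9.27 ± 0.22 in HepG2 (SD, n = 2 each), and 9.24 in PANC1. The BE(2)C libraries gave 8.48 and 9.89 and span the values of PANC1, MV3 and HepG2. HepG2, lowest in summed miR-106b-25 CPM, came close to BE(2)C after TMM scaling, with 10125 ± 1462 against 10637 ± 759 scaled CPM (SD, n = 2 each), while the other 4 lines had 4831 to 5934.

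**Figure D1:**
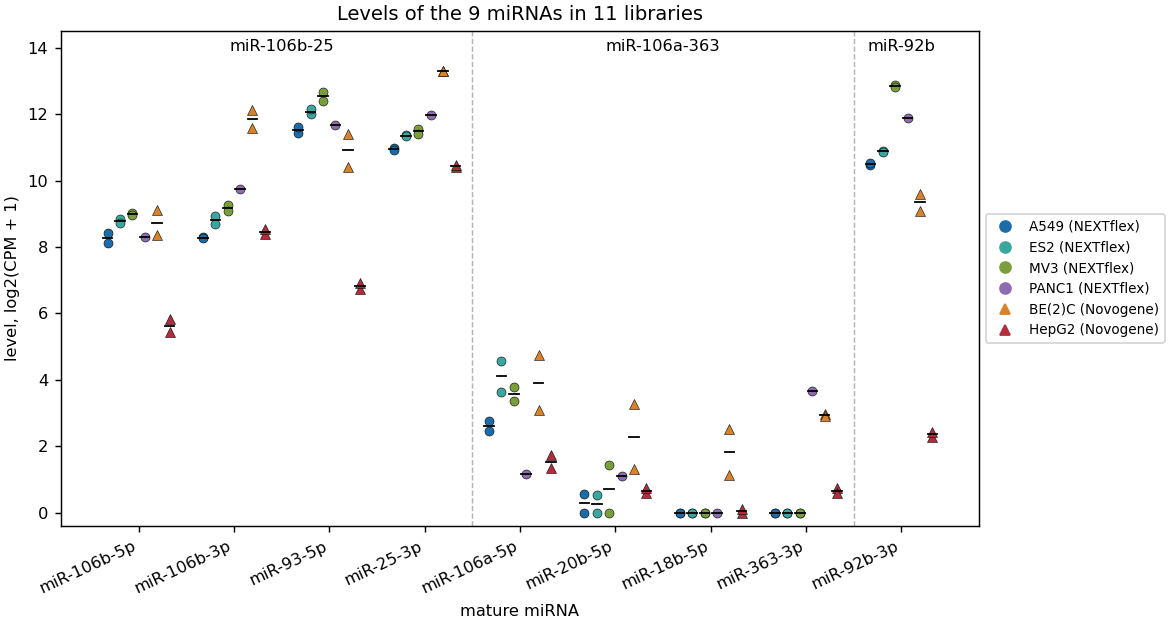
Level of each of the 9 miRNAs, as log2(CPM + 1), in the 11 libraries. Points are libraries (circles NEXTflex, triangles Novogene) and black dashes line means on this scale. All points of miR-106b-25 lie above 5, whereas those of miR-106a-363 stay below 5, and miR-92b-3p spans from near 2 in HepG2 to near 13 in MV3.

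MiR-93-5p was the leading product of miR-106b-25 in A549, ES2 and MV3, whereas miR-25-3p led in PANC1, BE(2)C and HepG2. MiR-93-5p, which shares its seed with miR-17-5p, was read at 2787 and 3127 CPM in A549, 4122 and 4534 in ES2, 5425 and 6510 in MV3, 3288 in PANC1, 1373 and 2698 in BE(2)C, and 105.97 and 120.6 in HepG2. On the CPM scale the libraries kept the lines apart, in the order MV3, ES2, PANC1, A549, BE(2)C and HepG2. After TMM scaling ES2 and MV3 overlapped at the top (means of 3276 and 3224 scaled CPM), and A549 (2783) stood above PANC1 (1863). MiR-25-3p, the founding member of its seed family, was read at 2043 and 1934 CPM in A549, 2649 and 2589 in ES2, 3010 and 2728 in MV3, 4071 in PANC1, 10012 and 10014 in BE(2)C, and 1370 and 1428 in HepG2. Its order was BE(2)C, PANC1, MV3, ES2, A549 and HepG2 in CPM, but after TMM scaling HepG2 moved to the top, overlapping BE(2)C (7410 ± 1177 against 6556 ± 500 scaled CPM, SD, n = 2 each).

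The arms of the MIR106B hairpin were read about equally in A549, ES2 and MV3. MiR-106b-5p lay at 344 and 276 CPM in A549, 460 and 426 in ES2, 517 and 498 in MV3, 313 in PANC1, 325 and 552 in BE(2)C, and 42.1 and 56.1 in HepG2. The BE(2)C libraries enclosed those of ES2 and MV3 and overlapped those of A549, and the A549 libraries enclosed PANC1. After TMM scaling the line means of miR-106b-5p spanned only 1.89-fold, against 10.3-fold in CPM. MiR-106b-3p lay at 312 and 307 CPM in A549, 488 and 409 in ES2, 616 and 541 in MV3, 853 in PANC1, 4482 and 3043 in BE(2)C, and 337 and 369 in HepG2. BE(2)C stood above all other lines on the CPM scale, while after TMM scaling its libraries overlapped those of HepG2. The BE(2)C libraries moved apart in opposite directions for both arms: the one with more miR-106b-3p had less miR-106b-5p and less miR-93-5p.

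Ratios within a library showed that the members of miR-106b-25 did not change together between lines. MiR-25-3p to miR-93-5p was 0.733 and 0.618 in A549, 0.643 and 0.571 in ES2, 0.555 and 0.419 in MV3, 1.24 in PANC1, 7.29 and 3.71 in BE(2)C, and 12.9 and 11.8 in HepG2. No Novogene library overlapped a NEXTflex library. MiR-106b-3p to miR-106b-5p ranged from 0.906 to 1.19 in A549, ES2 and MV3, was 2.73 in PANC1 and ranged from 5.52 to 13.8 in BE(2)C and HepG2. MiR-93-5p to miR-106b-5p, members of the same seed family, ranged from 8.10 to 13.1 in the NEXTflex and from 2.15 to 4.89 in the Novogene libraries. Hence the 2 miRNAs with the miR-17 seed took a smaller part of the cluster in BE(2)C and HepG2. MiR-93-5p made up 50.8% to 63.3% of the cluster reads in the 6 libraries of A549, ES2 and MV3, 38.6% in PANC1 (95% Wilson interval 38.2% to 38.9%), 8.48% and 16.5% in BE(2)C, and 5.71% and 6.11% in HepG2. MiR-25-3p made up 26.5% to 37.2% in A549, ES2 and MV3, 47.8% in PANC1, 61.8% and 61.4% in BE(2)C, and 73.9% and 72.4% in HepG2. Since the shift ran along the preparation, line and preparation cannot be told apart for it. The single PANC1 library lay between the other NEXTflex lines and the Novogene lines in the ratios of miR-25-3p to miR-93-5p and miR-106b-3p to miR-106b-5p. In the ratio of miR-93-5p to miR-106b-5p it lay within the range of the other NEXTflex lines (10.5).

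**Figure D2:**
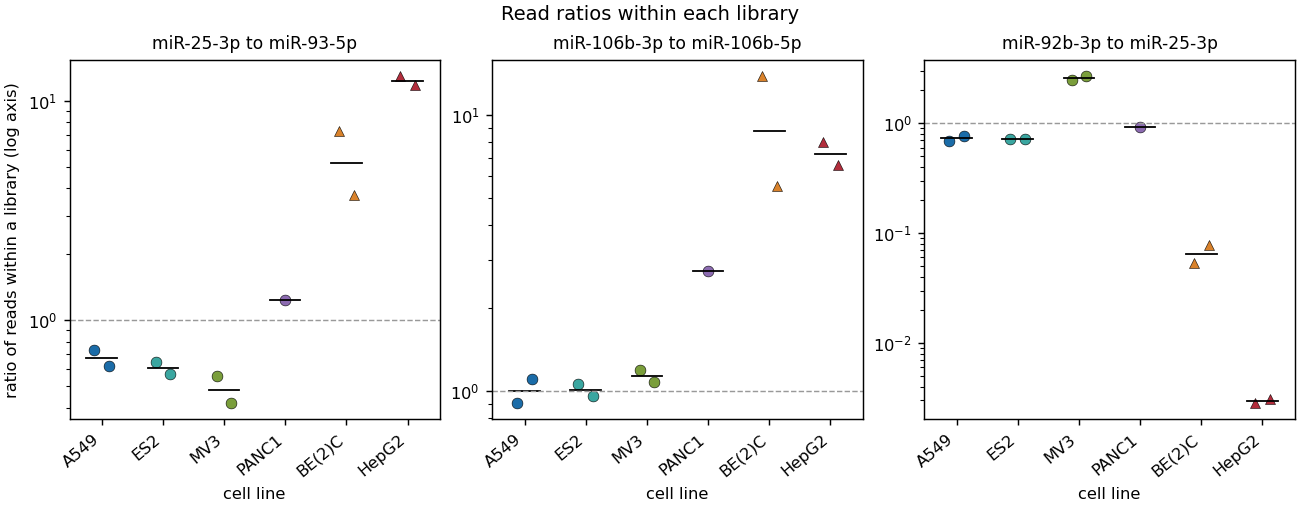
Ratio of reads of 2 miRNAs within each library, on log axes, by cell line. Points are libraries (circles NEXTflex, triangles Novogene), black dashes geometric means and the dashed grey line a ratio of 1. In the left panel the NEXTflex libraries lie between 0.419 and 1.24 and the Novogene libraries between 3.71 and 12.9, and in the right panel HepG2 falls to about 0.003.

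Shares of some hairpin arms differed as well, and between NEXTflex and Novogene libraries line and preparation cannot be told apart. MiR-106b-3p contributed 47.5% to 54.4% of the reads of both MIR106B arms in A549, ES2 and MV3, 73.2% in PANC1 and 84.7% to 93.2% in the Novogene libraries. MiR-25-5p, the minor arm of MIR25, contributed 1.83% to 6.75% in the NEXTflex and 0.239% to 0.746% in the Novogene libraries. MiR-93-3p stayed a minor arm of MIR93 in all libraries (0.791% to 3.5%), with overlap between preparations. For MIR92B the minor arm miR-92b-5p contributed 2.52% to 5.00% and 3.73% to 7.02%, also overlapping.

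Differences between lines were tested with limma on log2(CPM + 1) over the 546 miRNAs whose mean reached 10 CPM in 1 line or more. MiR-20b-5p and miR-18b-5p did not reach this level, so 7 of the 9 members were tested, and miR-363-3p only because of the single PANC1 library. All 7 differed across the 6 lines (Benjamini-Hochberg adjusted p at most 0.00931), but so did 99.3% of all tested miRNAs. Across the 4 NEXTflex lines 7 of 7 were called (adjusted p at most 0.0194), beside 85.4% of 453 tested miRNAs. With TMM factors miR-106b-5p was no longer called across the 6 lines (limma adjusted p = 0.185), which left 6 members beside 95.6% of all, and 7 across the 4 NEXTflex lines beside 76.2%. In the 4-line test the call of miR-363-3p rests on 1 PANC1 library against 6 libraries at 0 reads.

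Pairs of lines of the same preparation gave 13 called contrasts of the members on the CPM scale, of which 7 concerned BE(2)C against HepG2. All lines share 1 estimate of the spread in this fit, and fitting each preparation alone gave 19 calls. A difference that was not called is thus not shown to be absent. Between A549 and ES2 only miR-25-3p passed, 0.40 ± 0.12 (SE) lower in A549 on the log2 scale (limma adjusted p = 0.0282), beside 50.5% of all tested miRNAs called in either direction and 26.9% higher in ES2. Its call was lost without any 1 of the A549 or ES2 libraries. Between A549 and MV3 4 members passed, each higher in MV3, beside 57.3% of all in either direction and 37.4% higher in MV3. The log2 difference, A549 minus MV3, was -2.36 ± 0.19 for miR-92b-3p, -1.01 ± 0.30 for miR-93-5p, -0.90 ± 0.21 for miR-106b-3p and -0.53 ± 0.12 for miR-25-3p (SE, limma adjusted p at most 0.0209), beside a median of -0.47 over all tested miRNAs. MiR-93-5p was not called without any 1 of the A549 or MV3 libraries (-0.88 to -1.14), and miR-106b-3p not without MV3 replicate 1 (-0.80). Between ES2 and MV3 miR-92b-3p alone passed, with -1.97 ± 0.19 (SE, limma adjusted p = 0.000181), beside 32.8% of all in either direction and 23.8% higher in MV3.

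BE(2)C exceeded HepG2 in all 7 tested members, beside 83.0% of all tested miRNAs called in either direction, 74.7% higher in BE(2)C, and a median log2 difference of 2.79 over all of them. By the treatment protocol this pair also differs in harvest time (24 h for BE(2)C, 48 h for HepG2), the effect of which was not tested. The log2 difference was 6.99 ± 0.19 for miR-92b-3p, 4.08 ± 0.30 for miR-93-5p, 3.39 ± 0.21 for miR-106b-3p, 3.10 ± 0.28 for miR-106b-5p and 2.84 ± 0.12 for miR-25-3p (SE, limma adjusted p at most 1.70e-05). For the low members it was 2.38 ± 0.59 for miR-106a-5p and 2.29 ± 0.16 for miR-363-3p (SE, limma adjusted p at most 0.00585). With TMM factors 4 contrasts within a preparation were called, beside 46.7% of all tests in the 4 pairs. These were miR-92b-3p lower in A549 (-1.56) and in ES2 (-1.49) than in MV3, and miR-92b-3p (4.23) and miR-93-5p (1.08) higher in BE(2)C than in HepG2 (limma adjusted p at most 0.00646). In these directions 21.1%, 14.3% and 41.4% of all tested miRNAs were called. With TMM factors the median over all tested miRNAs was 0.49 in BE(2)C minus HepG2, and 0 in A549 minus MV3 and ES2 minus MV3. MiR-25-3p and miR-106a-5p changed sign in BE(2)C against HepG2 under TMM factors (-0.17 and -0.086), and miR-25-3p in A549 against MV3 (0.27). Leaving out either BE(2)C library raised the 13 calls to 20.

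Pairs spanning the preparations gave 32 called of 42 member contrasts on the CPM scale and 30 with TMM factors. Of all tests in these 6 pairs 71.7% were called on the CPM scale and 70.2% with TMM factors. Both counts hold 6 calls of miR-363-3p against lines at 0 reads. On the CPM scale the 3 of them with HepG2 lie within what a count of 0 allows, and on the TMM scale this limit was not determined. On the CPM scale miR-92b-3p was called higher in the NEXTflex line in 6 pairs and miR-93-5p in 5. MiR-106b-3p and miR-25-3p were called higher in BE(2)C than in A549, ES2 and MV3. Against HepG2, however, miR-25-3p was called higher in these lines (0.51, 0.90 and 1.03 on the log2 scale), and miR-106b-3p was called higher in MV3 (0.71). Each of these differences lay below the median over all tested miRNAs, which was 1.55 in A549, 1.02 in ES2 and 1.91 in MV3 minus HepG2. For A549, ES2 and MV3 minus BE(2)C this median was -1.38, -1.08 and -0.48. With TMM factors 4 members were called in the same direction in each of the 6 pairs, while 30.9% of all tests were called higher in the NEXTflex and 39.3% higher in the Novogene line. The median over all tested miRNAs with TMM factors was -0.88, -0.84 and -0.71 in A549, ES2 and MV3 minus BE(2)C. Minus HepG2 it was 0.23, 0 and 0. MiR-93-5p and miR-92b-3p were higher in the NEXTflex line, by 1.144 to 2.457 and 1.68 to 7.47 on the log2 scale. MiR-106b-3p and miR-25-3p were higher in the Novogene line on this scale, also against HepG2, with differences of -3.05 to -2.45 and -2.25 to -1.72, NEXTflex minus Novogene line. Against HepG2 the direction of miR-25-3p, and in MV3 that of miR-106b-3p, thus turned with the scaling, whereas the ratios within a library do not depend on it.

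**Figure D3:**
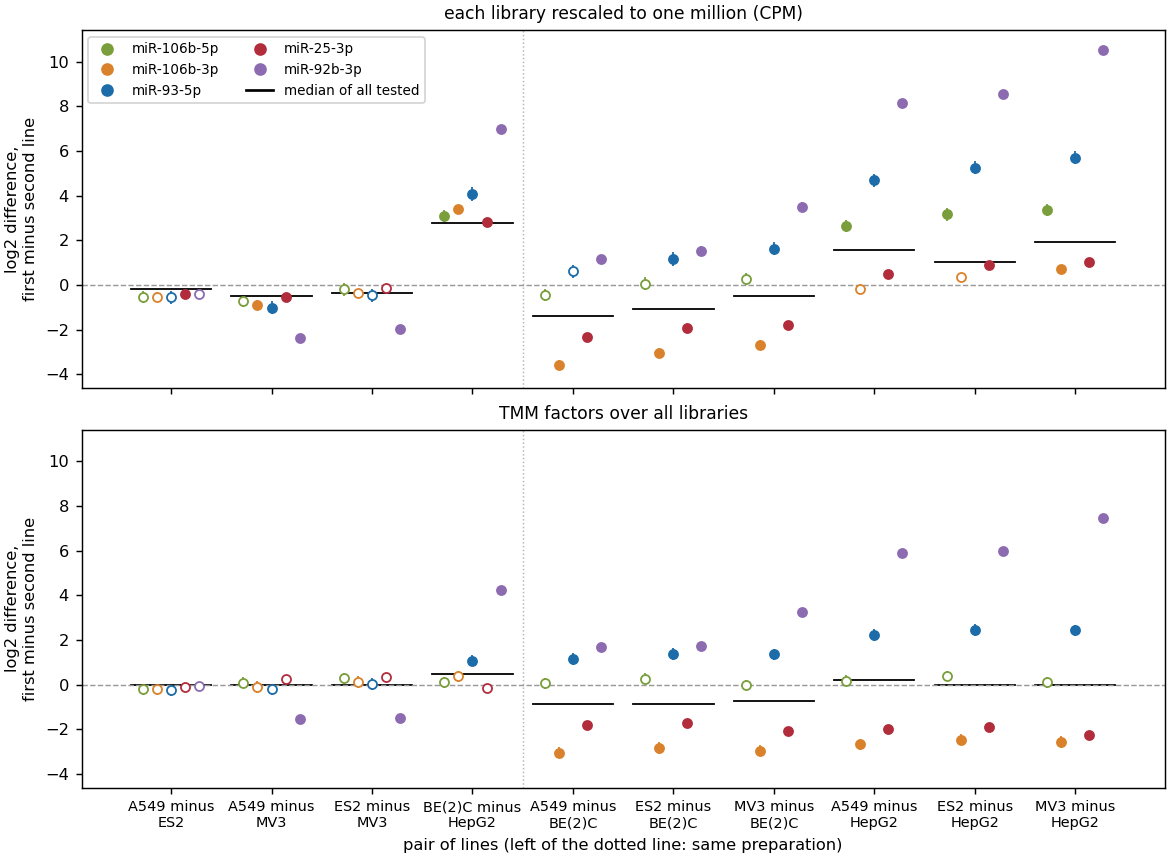
Log2 difference between 2 lines (first minus second) for 5 members, in CPM (top) and with TMM factors (bottom). Bars are SE of the limma fit, filled points passed an adjusted p of 0.05 and black lines give the median of all 546 tested miRNAs. Left of the dotted line both lines share a preparation, and BE(2)C minus HepG2 moves from 2.84 to -0.17 for miR-25-3p but only from 6.99 to 4.23 for miR-92b-3p.

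Members of miR-106a-363 had at most 169 reads in a library and were close to the detection limit in several libraries. Different products were read in different lines. MiR-106a-5p, the counterpart of miR-17-5p, was the only one of them with reads in all 11 libraries. It had 12 and 12 reads in A549 (4.49 and 5.82 CPM), 38 and 26 in ES2 (22.8 and 11.3 CPM), 11 and 20 in MV3 (9.37 and 12.9 CPM), 12 in PANC1 (1.23 CPM), 56 and 169 in BE(2)C (7.45 and 25.8 CPM), and 18 and 28 in HepG2 (1.52 and 2.31 CPM). ES2, BE(2)C and MV3 overlapped, and PANC1 was lowest. MiR-363-3p, the only member of this cluster with the miR-25 seed that is not shared with another locus, showed a different distribution. It had 114 reads in PANC1 (11.7 CPM), 52 and 43 in BE(2)C (6.91 and 6.57 CPM), 8 and 6 in HepG2 (0.673 and 0.494 CPM), and 0 in the 6 libraries of A549, ES2 and MV3. With a floor of 3 reads over both libraries of a line, the level read in PANC1 was 18.4-fold the floor of A549, 15.4-fold that of ES2 and 10.6-fold that of MV3. The BE(2)C mean was 10.6-, 8.90- and 6.12-fold these floors. Error in the PANC1 and BE(2)C levels themselves is not included. The mean of 0.584 CPM in HepG2 lay under the 0.634 to 1.10 CPM that 0 reads allow in A549, ES2 and MV3. On the CPM scale, the calls of HepG2 above A549, ES2 and MV3 in the fit (limma adjusted p at most 0.00672) therefore show no difference beyond what this depth leaves possible. After TMM scaling the HepG2 mean was 3.16 scaled CPM, and what 0 reads allow on that scale was not determined.

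In the single PANC1 library miR-363-3p exceeded miR-106a-5p 9.5-fold (114 against 12 reads). In BE(2)C and HepG2 the same ratio was 0.214 to 0.929. The opposite arm miR-363-5p had 38 reads in PANC1, 25% of both MIR363 arms (95% Wilson interval 18.8% to 32.4%), and none in the other libraries. MiR-18b-5p had 9 and 31 reads in BE(2)C (1.20 and 4.74 CPM), 1 read in HepG2 replicate 2 and none in the remaining 8 libraries. MiR-20b-5p had 11 and 56 reads in BE(2)C (1.46 and 8.56 CPM), 11 in PANC1, 6 and 8 in HepG2, and 0 to 2 in each library of A549, ES2 and MV3. BE(2)C replicate 2 exceeded replicate 1 for miR-106a-5p, miR-18b-5p and miR-20b-5p, but not for miR-363-3p.

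Reads assigned to the X-linked products were few relative to their counterparts in miR-17-92 on chromosome 13. MiR-106a-5p took 0.591% to 3.80% of the reads of miR-106a-5p and miR-17-5p together, miR-18b-5p 0% to 1.94% of those of miR-18b-5p and miR-18a-5p, and miR-20b-5p 0% to 0.334% of those of miR-20b-5p and miR-20a-5p. MiR-92a-3p and miR-19b-3p are encoded in both clusters with identical mature sequences, and the files list 1 row for chromosome X and 1 for chromosome 13. The X row held 47.8% to 49.7% of the miR-92a-3p reads and 47.3% to 55.8% of the miR-19b-3p reads in the 11 libraries. Such shares were present also in the 6 libraries with neither miR-363-3p nor miR-18b-5p reads. The X rows of these shared miRNAs therefore cannot be read as output of miR-106a-363.

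**Figure D4:**
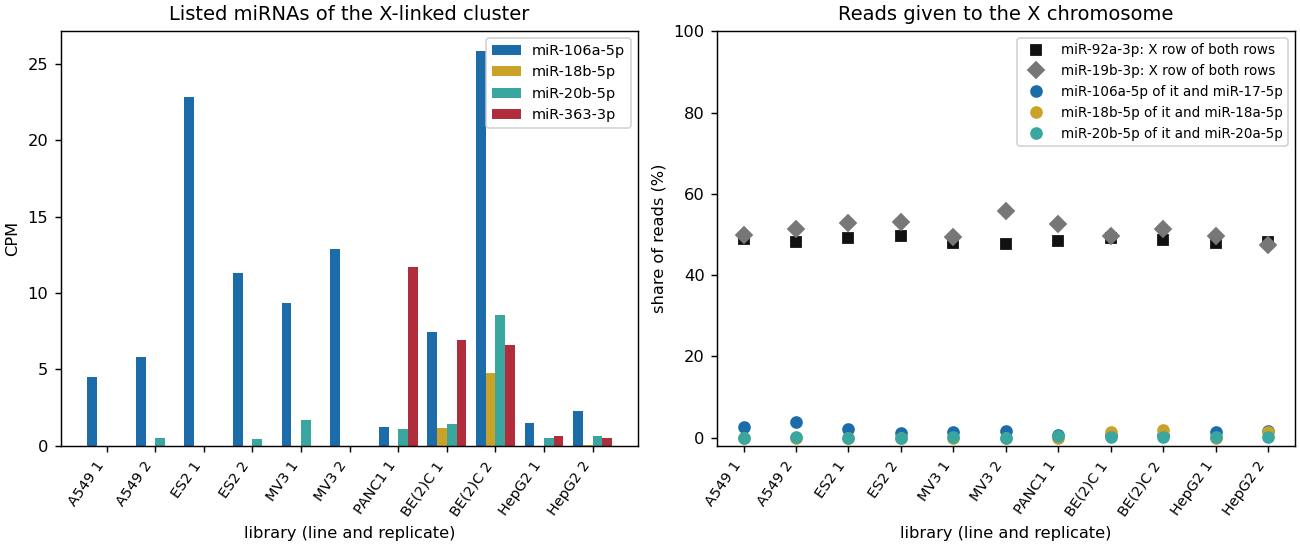
Left, CPM of the 4 members of miR-106a-363 in each library. Right, share of reads (%) listed for chromosome X, for miR-92a-3p and miR-19b-3p as the X row of both rows and for 3 members as their part of the reads of member and miR-17-92 counterpart. Shared products stay near 50% in all libraries (47.3% to 55.8%), whereas the members with a sequence of their own stay at or below 3.80%.

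MiR-92b-3p varied most between lines among the members with reads in every library. It was read at 1425 and 1470 CPM in A549, 1905 and 1869 in ES2, 7539 and 7305 in MV3, 3757 in PANC1, 539 and 781 in BE(2)C, and 3.87 and 4.37 in HepG2, the last from 46 and 53 reads. The order MV3, PANC1, ES2, A549, BE(2)C and HepG2 showed no overlap between neighbours, and it was the same after TMM scaling. Mean levels in MV3 and HepG2 differed 1802-fold in CPM and 185-fold after TMM scaling. Against miR-25-3p, which has the same seed, the ratio within a library was 2.505 and 2.68 in MV3, 0.698 to 0.760 in A549 and ES2, 0.923 in PANC1, 0.0539 and 0.0780 in BE(2)C, and 0.00283 and 0.00306 in HepG2. Relative to miR-92a-3p, its closest neighbour in sequence, it ranged from 0.00197 in HepG2 to 0.195 in MV3. MiR-92b-3p had the largest log2 difference among the tested members between BE(2)C and HepG2, on both scales.

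As miRNAs with a common seed share targets, the parts of the clusters in each seed family were determined. Of 8 listed miRNAs with the miR-17 seed 6 had reads. MiR-106b-5p and miR-93-5p together provided 87.9% ± 0.643 of these reads in A549, 80.0% ± 1.20 in MV3, 65.9% ± 2.19 in ES2, 43.0% ± 11.7 in BE(2)C and 30.8% ± 1.86 in HepG2 (SD, n = 2 each), and 86.8% in PANC1. BE(2)C and HepG2, whose libraries did not overlap, were thus the lines in which miR-17-5p and miR-20a-5p provided most reads of this family on average, though BE(2)C replicate 1 had 51.3% from miR-106b-25. MiR-106a-5p and miR-20b-5p added 0.0569% to 0.494%.

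Among reads with the miR-25 seed, miR-106b-25 had its largest parts in BE(2)C and HepG2, where its part of the miR-17 seed was smallest. Of 6 listed miRNAs with this seed 5 had reads, and miR-92a-3p provided 48.6% to 92.3% of the reads. MiR-25-3p provided 4.55% ± 0.126 in ES2, 5.70% ± 0.595 in MV3, 12.3% ± 0.280 in A549, 40.6% ± 2.52 in HepG2 and 43.7% ± 6.72 in BE(2)C (SD, n = 2 each), and 14.4% in PANC1. MiR-92b-3p provided 14.7% ± 0.847 in MV3, 8.94% ± 0.338 in A549, 3.28% ± 0.0814 in ES2, 2.83% ± 0.305 in BE(2)C and 0.119% ± 0.000742 in HepG2 (SD, n = 2 each), and 13.2% in PANC1. MiR-92b-3p exceeded miR-25-3p only in MV3. MiR-363-3p stayed at or below 0.0412% of this family.

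**Figure D5:**
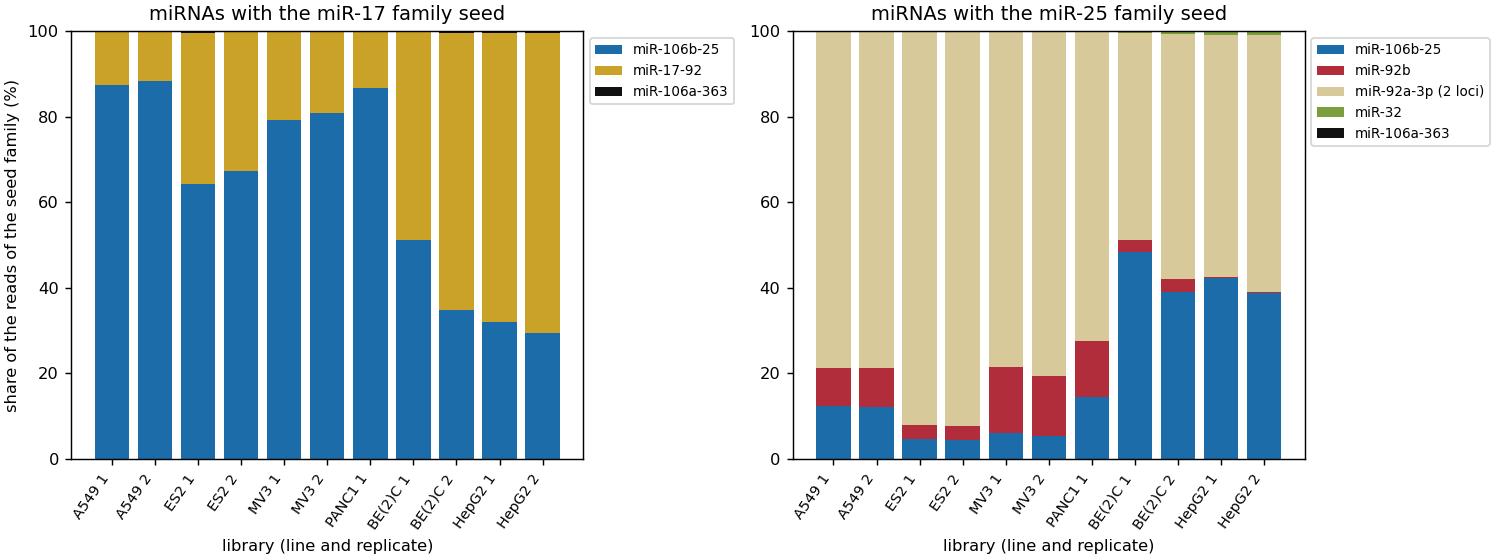
Share of the reads (%) of miRNAs with the miR-17 seed (left) and the miR-25 seed (right) by source, in each library. Bars sum to 100%. The blue part, miR-106b-25, falls from 88.4% in A549 to 29.5% in HepG2 on the left, and rises from 4.46% in ES2 to 48.5% in BE(2)C on the right.

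Of 25 related miRNAs, chosen as other products of these loci, products of miR-17-92 and further carriers of the seeds, 14 reached 10 CPM in at least 1 line and 7 had no read in any library. All 14 were called across the 6 lines (limma adjusted p at most 0.00948), and 13 across the 4 NEXTflex lines, beside the background of 99.3% and 85.4%. Only miR-32-5p, an intronic miRNA with the miR-25 seed, missed the threshold across the 4 lines (limma adjusted p = 0.0923). With TMM factors 14 and 12 were called, and miR-92b-5p was lost in addition (limma adjusted p = 0.113). Of the 9 other products of the member loci, miR-93-3p, miR-25-5p and miR-92b-5p were tested, and 4 had no reads.

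Similarity of patterns was described by Pearson's r of the log2(CPM + 1) means over the 6 lines, which share libraries and preparation. High values were common over so few points, since of 539 compared miRNAs 59 exceeded an r of 0.9 with miR-92b-3p, 42 with miR-106b-5p, 15 with miR-363-3p and 11 with miR-106a-5p. MiR-92b-3p was most similar to its own opposite arm miR-92b-5p (r = 0.995, and 0.997 with TMM factors), followed by miR-27a-3p (0.995 and 0.951) and miR-3613-5p (0.993 and 0.989). MiR-106a-5p was most similar to miR-17-3p (0.990 and 0.949), the minor arm of MIR17, then to miR-140-5p (0.979 and 0.893) and miR-671-3p (0.974 and 0.951). MiR-363-3p resembled miR-500b-3p (0.994 and 0.957), miR-1247-3p (0.980 and 0.813) and miR-501-3p (0.973 and 0.889). For miR-106b-5p the leading miRNAs were miR-2355-3p (0.991), let-7c-5p (0.989) and miR-324-5p (0.979), with 0.381, 0.422 and 0.279 under TMM factors. Within miR-106b-25, miR-106b-5p and miR-93-5p correlated with r = 0.967 and miR-106b-3p and miR-25-3p with r = 0.967, whereas r was 0.404 for miR-93-5p and miR-25-3p. With TMM factors these values were 0.295, 0.982 and -0.931.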

How the data were processed

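Small RNA-seq tables of 6 cell lines (11 libraries, 7 NEXTflex and 4 Novogene) with 2813 rows each, 1 per genomic copy of a mature miRNA, were used. The authors deposited CPM for PANC1 and, for the other 5 lines, a signal, which is CPM over a factor that differs between the libraries of a table. The submitters' processing notes name cutadapt 1.14, Bowtie2 2.3.2, SAMtools 1.5, featureCounts 1.5.3, edgeR 3.30.3 and hg38. Their settings for reads that fit several loci are not given in the sources used here. No column lacked a sample (0).

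Every non-zero value was a whole multiple of 1 read (tolerance 0.001), so reads were recovered for 100% of the values. Rows of one name were summed and each library was rescaled to 1000000. Rescaling was needed because the tables had been scaled separately. Line differences were tested with limma 3.58.1 (R 4.3.3, trended eBayes) on log2(CPM + 1), over miRNAs whose mean reached 10 CPM in 1 line or more. P-values were two-sided and adjusted by Benjamini-Hochberg over all tested miRNAs, with a threshold of 0.05. Fold changes on this scale understate changes of low miRNAs. PANC1, with 1 library, entered the F tests but no pair, and borrows the spread of the other lines. Contrasts were tested on simulated data first. Alternatives were TMM (edgeR 4.0.16) and DESeq2 1.42.0 size factors, edgeR and DESeq2 on recovered reads, other pseudocounts and filters, a replicate block and leaving out libraries. Replicates differed by more than counting noise (chi-square per degree of freedom 8.53 to 849). The highest value was that of BE(2)C, followed by 59.2 in HepG2.

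The members and lists were chosen with earlier results of these data known. Named miRNAs are the members, the related miRNAs that pass the 10 CPM filter and the 3 most similar miRNAs for each of 4 members (miR-106b-5p, miR-106a-5p, miR-363-3p, miR-92b-3p). Sums, ratios and shares of members were given without a test.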

Additional observations from a re-analysis of the deposited data

How the results depend on the processing

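Counts of members called across the 6 lines and across the 4 NEXTflex lines stayed within 1.5 times of 7 under all alternatives run (6 to 7 and 5 to 7 when leaving out a library). Contrasts called within a preparation depended on scaling: 13 on the CPM scale, 4 with TMM factors, 5 with DESeq2 size factors, 4 with edgeR and 6 with DESeq2 on reads, and 11 to 20 when leaving out a library. Contrasts called between preparations numbered 32, and 26 to 35 without 1 library. Contrasts called within a preparation numbered 19 on the CPM scale when the lines of each preparation were fitted alone. Of the 13 contrasts called with all lines fitted together, 7 changed sign under another scaling or count test. These were, in log2, A549 minus ES2 for miR-25-3p (DESeq2 size factors 0.22, DESeq2 on reads 0.25), and A549 minus MV3 for miR-106b-3p (0.15 and 0.17), miR-93-5p (0.040 and 0.062) and miR-25-3p (0.52 and 0.55, TMM 0.27, edgeR 0.26). The others were BE(2)C minus HepG2 for miR-106b-5p (DESeq2 size factors -0.073, edgeR -0.085, DESeq2 on reads -0.038), miR-25-3p (-0.36, -0.41, -0.31, TMM -0.17) and miR-106a-5p (-0.26, -0.13, -0.13, TMM -0.086). Of 12 uncalled contrasts 9 changed sign under at least 1 alternative. The cause was not tested.

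The log2 ratio of miR-106b-25 to miR-106a-363 was 8.94 in PANC1 with opposite arms added, and 10.49 in BE(2)C and 10.68 in HepG2 without miR-106a-5p and miR-18b-5p, for which A549, ES2 and MV3 gave no value because a library was at 0. Leaving out a library gave 9.81 to 10.25 in A549, 8.40 to 9.40 in ES2, 9.64 to 9.75 in MV3, 8.48 to 9.89 in BE(2)C and 9.12 to 9.43 in HepG2. Same-numbered replicates of different lines did not deviate together (correlations -0.0531 to 0.109), so the numbers do not pair libraries, and a replicate block gave 7, 6, 13 and 33 calls for the 4 counts. A count of 0 leaves up to 2.56 CPM possible in the shallowest single library, and 0.634 to 1.10 CPM over both libraries of A549, ES2 or MV3.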
